A study of Homo sapiens with 6 samples.

Results

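Long non-coding RNAs (lncRNAs) that recur in studies of colorectal and other cancers were examined in HCT116SCs, stem-like cells that were selected from HCT116, a human colon carcinoma line, for the surface proteins CD44 and CD326 (EPCAM) and grown as spheres. The 10 RNAs listed were MALAT1, NEAT1, H19, CCAT1, UCA1, KCNQ1OT1, PVT1, TUG1, OIP5-AS1 and CYTOR, and they were found by gene symbol among the 58735 genes of the expression table. A row was present for 9 of them, and CCAT1 had none. Of these 9, 6 reached the mean of 1 FPKM (fragments per kilobase of transcript, scaled to the mapped reads of each library) that was required for testing, as did 13796 genes in all, while H19, KCNQ1OT1 and CYTOR lay below it.

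RNA was taken 48 h after wild-type HCT116SCs in serum-free medium with EGF, bFGF and B27 were transfected with negative control siRNA (NC, n = 3) or with siRNA against PSCA (siPSCA, n = 3). PSCA is a cell surface protein of the Ly6 family, and the comparison addresses which transcripts differ when its siRNA is present. Both groups carried the same liposomal transfection, all cells came from 1 line, and which of the designed PSCA siRNAs was used is not named. The labels do not say that the replicates were separate cultures, so the p-values measure the spread between these libraries, which may be technical.

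The NC libraries held 16145977 to 16884838 reads on genes and the siPSCA libraries 16099716 to 17302219, so that 1 read on 1 kb of transcript was worth 0.0549 to 0.0595 FPKM. PSCA itself held 4, 12 and 15 reads in NC and 9, 9 and 7 in siPSCA, so the knockdown could not be seen at this depth (siPSCA to NC read ratio 0.799 after scaling to the reads on genes, 95% counting interval 0.452 to 1.398). Levels of the 8 epithelial colorectal markers varied widely. KRT8 (176.3 to 212.9 FPKM), KRT18 (114.4 to 143.3) and EPCAM (93.3 to 122.9) were high. CD44 lay between 59.6 and 87.5 FPKM and CDH1 between 18.8 and 32.1 FPKM. PROM1 (2.72 to 5.16 FPKM) and CDX2 (1.68 to 4.18 FPKM) were low. LGR5, a marker of normal intestinal stem cells, did not exceed 0.0857 FPKM. Of 6 markers of other cells, COL1A1 alone was above 1 FPKM (3.35 to 6.51), and PTPRC, COL3A1, PECAM1, HBB and ALB stayed at or below 0.223 FPKM. COL1A1 was above CDX2 in every library. Of 7 tested epithelial markers 5 differed between the groups (limma adjusted p under 0.05), beside 50.7% of all tested genes. CD44 (log2 fold change -0.44), CDH1 (-0.60) and PROM1 (-0.59) were lower in siPSCA, and KRT8 (0.22) and CDX2 (0.70) were higher. COL1A1 was higher in every siPSCA library than in any NC library (adjusted p = 0.111). The groups were apart in this way, in either direction, for 64.5% of all tested genes. With the trend on GC content and gene length described below removed, 5 of the epithelial markers differed, beside 39.9% of all tested genes. KRT8 then did not pass (-0.07, adjusted p = 0.427), and KRT18 did (-0.49, adjusted p = 0.0227). COL1A1 differed by -0.05 in that fit (adjusted p = 0.577). The part of these markers in the results was not tested. The library NC 3 stood apart from its group: its genes differed from NC 1 and NC 2 by a root mean square of 0.410 and 0.390 on the log2 scale, against 0.254 to 0.268 for the other pairs of replicates. The titles of siPSCA 2 and siPSCA 3 name lines other than HCT116, and their remaining labels name HCT116.

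LncRNAs act as RNA, without being translated, and those studied here fall into several classes. MALAT1 and NEAT1 are nuclear RNAs made from neighbouring genes on the long arm of chromosome 11: MALAT1 gathers in nuclear speckles, which store splicing factors, and NEAT1 is the RNA scaffold of paraspeckles. H19 and KCNQ1OT1 belong to an imprinted domain on the short arm of the same chromosome, in which each is transcribed from only one parental allele. TUG1, OIP5-AS1, UCA1, PVT1, CYTOR and CCAT1 are spliced or multi-exon RNAs that have been described as raised in tumours of the colon, bladder, breast or other organs.

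The data showed lower levels of most of the measurable RNAs in siPSCA. MALAT1 fell by 50.4%, UCA1 by 33.8%, OIP5-AS1 by 29.5% and TUG1 by 23.2% in mean FPKM, and none of the RNAs rose past the threshold. Of the 6 tested RNAs, 4 had an adjusted p under 0.05 in limma's test, all 4 lower in siPSCA. Without NC 3, 5 passed, the 4 and NEAT1, while the count over all 13796 tested genes went from 7001 to 7425. Of all tested genes, 50.7% passed that threshold in either direction and 24.2% passed it as lower. Of the 1204 tested genes of long non-coding biotypes, 30.1% passed, and 20.7% passed as lower. The log2 fold changes of the 6 RNAs had a median of -0.41, beside 0.01 over all tested genes and -0.11 over the tested long non-coding biotypes. The FPKM values of the groups did not overlap for 6 of 6 RNAs, 5 of them lower in siPSCA, and such separation was found for 64.5% of all tested genes. With an unadjusted p under 0.05 and an absolute log2 fold change over 0.5, 2 of the 6 RNAs passed, MALAT1 and UCA1, beside 24.9% of all tested genes.

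Fold changes in these libraries moved with base composition. Across 13792 tested genes with a known GC content, the log2 fold change rose with GC content (Spearman's rho 0.675, across genes, which share the same 6 libraries and are not independent). The 6 tested RNAs had GC contents of 39.6% to 51.1%. MALAT1, TUG1, OIP5-AS1 and NEAT1 lay below the median of 48.8% over all tested genes, and UCA1 (49.2%) and PVT1 (51.1%) just above it. After the trend with GC content and gene length was removed from each library, the median log2 fold change of the 6 RNAs was -0.08, and 3 of them, MALAT1, OIP5-AS1 and UCA1, had an adjusted p under 0.05, beside 39.9% of all tested genes. Whether the trend arose in the cells or in the libraries was not tested, and its share of each difference is given with the values of each RNA.

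MALAT1 (ENSG00000251562, GRCh38 chr11:65497688-65506516) is a nuclear RNA linked to metastasis and splicing. Its 3' end is cut by RNase P and guarded by a folded A-rich stretch in place of a usual poly(A) tail. MALAT1 read 31.1, 24.8 and 26.9 FPKM in NC and 11.8, 14.3 and 14.9 FPKM in siPSCA. All siPSCA libraries were far below all NC libraries, without overlap. The mean was 27.6 ± 3.20 FPKM (SD, n = 3) in NC and 13.7 ± 1.68 FPKM (SD, n = 3) in siPSCA, which was 50.4% lower. The log2 fold change was -0.96 (SE 0.115, 95% interval -1.24 to -0.68, limma adjusted p = 0.00178), and it stayed between -1.03 and -0.87 when any 1 library was left out. With the GC and length trend removed, the log2 fold change was -0.60 (adjusted p = 0.0076), so the remaining difference was smaller but in the same direction. MALAT1 ranked 16 by mean FPKM among the 8421 long non-coding genes with a read.

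The stretches around the start sites of MALAT1, TUG1 and OIP5-AS1 are shown because these 3 RNAs fell and share a low GC content in their transcripts, 39.6%, 41.8% and 42.2%. Of the 10 RNAs, 5 (MALAT1, H19, TUG1, OIP5-AS1 and CYTOR) matched an entry in the RefSeq promoter table of GRCh38.p14, and NEAT1, UCA1, KCNQ1OT1, PVT1 and CCAT1 did not. Each sequence holds 250 bases before and 50 bases after the RefSeq start, reads 5′ to 3′ on the plus strand of the genome, which is the strand of all 3 genes, and has in capitals every match, on either strand, to CACGTG (the E-box bound by MYC and related factors), to its core ACGTG, and to the motifs GGGCGG (bound by SP1), CCAAT (bound by NF-Y) and TGACTCA (bound by AP-1). ACGTG lies within CACGTG, so matches to the longer motif are also matches to the shorter.
MALAT1, chr11:65497488-65497787: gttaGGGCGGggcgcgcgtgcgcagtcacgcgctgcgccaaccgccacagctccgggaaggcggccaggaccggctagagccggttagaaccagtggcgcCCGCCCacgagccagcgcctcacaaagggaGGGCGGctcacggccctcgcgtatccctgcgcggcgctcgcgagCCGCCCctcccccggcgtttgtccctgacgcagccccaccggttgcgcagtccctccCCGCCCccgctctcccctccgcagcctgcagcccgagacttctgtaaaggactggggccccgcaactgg
TUG1, chr22:30969015-30969314: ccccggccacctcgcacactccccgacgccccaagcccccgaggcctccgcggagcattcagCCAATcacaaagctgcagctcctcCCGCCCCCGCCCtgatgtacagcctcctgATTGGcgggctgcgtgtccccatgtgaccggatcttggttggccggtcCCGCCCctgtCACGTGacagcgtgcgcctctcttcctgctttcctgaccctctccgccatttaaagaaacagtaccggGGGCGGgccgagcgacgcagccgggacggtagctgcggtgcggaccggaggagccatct
OIP5-AS1, chr15:41283740-41284039: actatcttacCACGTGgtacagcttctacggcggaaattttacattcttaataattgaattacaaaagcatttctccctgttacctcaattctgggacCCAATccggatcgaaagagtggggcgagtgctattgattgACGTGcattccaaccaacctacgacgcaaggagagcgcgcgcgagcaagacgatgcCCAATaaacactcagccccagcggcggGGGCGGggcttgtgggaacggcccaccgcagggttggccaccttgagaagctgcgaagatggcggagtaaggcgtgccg

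These start regions were rich in G and C, 73.7% for MALAT1, 67.7% for TUG1 and 54.3% for OIP5-AS1, unlike the transcripts that follow them. The MALAT1 window held 5 matches to GGGCGG and none to the other motifs. The TUG1 window held 4 matches to GGGCGG, 2 to CCAAT and 1 to CACGTG, and that of OIP5-AS1 held 1, 2 and 1. Of all 35116 promoters of the same length, 45.0% held GGGCGG, 34.6% CCAAT, 21.4% ACGTG, 7.26% CACGTG and 4.95% TGACTCA. A match marks letters only, and no binding was measured.

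NEAT1 (ENSG00000245532, chr11:65422774-65445540) lies next to MALAT1 and builds paraspeckles, nuclear bodies that hold back RNAs and proteins. NEAT1 read 18.2, 16.7 and 16.1 FPKM in NC and 15.2, 15.4 and 15.2 FPKM in siPSCA. The siPSCA libraries lay just below the lowest NC library and were close to each other. The means were 17.0 ± 1.06 FPKM (SD, n = 3) and 15.2 ± 0.105 FPKM (SD, n = 3). The log2 fold change of -0.15 (SE 0.057, 95% interval -0.29 to -0.01) had an unadjusted p of 0.0409 in limma and an adjusted p of 0.0730, which missed the threshold. It passed without NC 3 (-0.18, adjusted p = 0.0181), and with the GC and length trend removed its sign changed (0.13, adjusted p = 0.208), so no direction can be given for NEAT1. Its annotated transcripts run from 512 to 22743 bases, and a value per gene cannot tell the short form from the long form, of which only the long one builds paraspeckles.

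The order of the 2 neighbouring RNAs by FPKM therefore differed between the groups. The ratio of MALAT1 to NEAT1 FPKM was 1.71, 1.48 and 1.67 in NC and 0.775, 0.933 and 0.983 in siPSCA. By FPKM, MALAT1 was the higher in all 3 NC libraries and NEAT1 the higher in all 3 siPSCA libraries. In reads, NEAT1 was the higher in every library (in NC 6950, 6639 and 6308 against 4608, 3809 and 4093). NEAT1 reads are divided by 22767 bases, although transcripts from 512 bases are annotated. The order by FPKM thus cannot tell which RNA had more molecules. The log2 ratio differed by -0.86 (exact permutation test, 2-sided p = 0.1, the smallest p that 3 against 3 libraries can give). Between their genes lies AP000769.1, a transcribed pseudogene 9.72 kb beyond NEAT1 and 31.0 kb before MALAT1, which fell from 9.98 to 6.37 FPKM (log2 fold change -0.57, adjusted p = 0.00178) and did so with the trend removed as well (-0.61, adjusted p = 0.00145). FRMD8, a protein-coding gene 9.25 kb before NEAT1, was higher in siPSCA by 0.98 on the log2 scale (adjusted p = 0.00858), and with the trend removed by 0.37 (adjusted p = 0.0085).

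OIP5-AS1 (ENSG00000247556, chr15:41283990-41309737), also called cyrano, is a mostly cytoplasmic RNA that binds the microRNA miR-7 and the RNA-binding protein HuR. OIP5-AS1 read 15.3, 15.4 and 17.0 FPKM in NC and 11.2, 10.7 and 11.8 FPKM in siPSCA. Every siPSCA library was below every NC library. The mean went from 15.9 ± 0.948 FPKM (SD, n = 3) to 11.2 ± 0.545 FPKM (SD, n = 3), 29.5% lower. The log2 fold change was -0.47 (SE 0.063, adjusted p = 0.0025), and -0.13 with the trend removed (adjusted p = 0.0413), so most of the difference went with base composition and length, and on recovered reads with the trend removed it did not pass (-0.09, adjusted p = 0.182). OIP5, the protein-coding gene on the opposite strand, shares 470 exonic bases with it, 3.71% of the exons of OIP5-AS1, and since the strand of the libraries is not stated, reads there cannot be told apart. OIP5 read 6.16, 5.99 and 4.18 FPKM in NC and 5.69, 9.70 and 7.99 FPKM in siPSCA, overlapping groups with a log2 fold change of 0.44 (adjusted p = 0.117). Of the genes on either side, CHP1, 2.1 kb away, fell by 0.21 on the log2 scale (adjusted p = 0.0148), and NUSAP1, 23.0 kb away, differed by 0.14 (adjusted p = 0.127). With the trend removed both passed, CHP1 at -0.27 (adjusted p = 0.00224) and NUSAP1 at 0.28 (adjusted p = 0.0188).

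TUG1 (ENSG00000253352, chr22:30969245-30979395) was first described as a taurine-induced RNA of the retina and is expressed in most tissues. TUG1 read 12.7, 12.5 and 13.2 FPKM in NC and 9.64, 9.82 and 10.2 FPKM in siPSCA. The replicates lay close together and the groups were apart. The mean went from 12.8 ± 0.365 FPKM (SD, n = 3) to 9.87 ± 0.263 FPKM (SD, n = 3), 23.2% lower, with a log2 fold change of -0.35 (SE 0.049, adjusted p = 0.00278). With the GC and length trend removed, the difference was -0.02 (adjusted p = 0.649), and TUG1 was the one of the 4 falling RNAs whose call was lost in that fit. MORC2, whose gene lies 0.947 kb from that of TUG1, had nearly equal means in both groups, 7.83 FPKM in NC and 7.82 FPKM in siPSCA (adjusted p = 0.999). SMTN, 84.7 kb on the other side, rose by 0.69 on the log2 scale (adjusted p = 0.00142), and by 0.23 with the trend removed (adjusted p = 0.0389).

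UCA1 (ENSG00000214049, chr19:15828206-15836326), urothelial cancer associated 1, is raised in bladder tumours and has been tied to glycolysis and drug resistance in several carcinomas. UCA1 read 12.6, 12.3 and 10.01 FPKM in NC and 7.69, 7.89 and 7.58 FPKM in siPSCA. All siPSCA libraries were below all NC libraries, and NC 3 was the lowest of its group, 0.29 below the mean of NC 1 and NC 2 on the log2 scale. The mean went from 11.7 ± 1.43 FPKM (SD, n = 3) to 7.72 ± 0.158 FPKM (SD, n = 3), 33.8% lower. The log2 fold change was -0.53 (SE 0.090, adjusted p = 0.00496) with all libraries and -0.63 (adjusted p = 0.000298) without NC 3. It was -0.58 (adjusted p = 0.0051) with the trend removed, so UCA1 was lower by a like amount whether or not base composition was taken into account. LINC01835, annotated as a transcribed pseudogene 15.7 kb beyond UCA1, was lower in the same way, from 4.95 to 2.32 FPKM (log2 fold change -0.86, adjusted p = 0.00661, and -0.90 with the trend removed, adjusted p = 0.00503). The nearest measured gene on the other side, RPL23AP2 at 216.1 kb, did not pass (-0.19, adjusted p = 0.383). LINC01764, whose exons overlap those of UCA1 by 489 bases on the opposite strand, held at most 2 reads in any library.

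KCNQ1OT1 (ENSG00000269821, chr11:2608328-2699994) is an unspliced antisense RNA of 91667 bases, transcribed from the paternal allele, that silences neighbouring genes such as CDKN1C on that allele. Its FPKM were small, 0.237, 0.215 and 0.250 in NC and 0.120, 0.117 and 0.115 in siPSCA. In reads, spread over the 91667 bases, these values were 365, 343 and 395 in NC and 186, 190 and 192 in siPSCA. All siPSCA libraries lay well below all NC libraries, close to one another. The siPSCA group held 568 reads and the NC group 1103, and the ratio after scaling to the reads on genes was 0.510 (95% counting interval 0.460 to 0.565). On log2(FPKM + 1), a scale that understates changes of low values, the log2 fold change was -0.14 (SE 0.040, adjusted p = 0.0636), in a fit to all 34391 genes with a read, of which 16.3% passed. In that fit KCNQ1OT1 passed without NC 2 (adjusted p = 0.0464) or without NC 3 (adjusted p = 0.0408), and with the trend removed its sign changed (0.19, adjusted p = 0.0586). The trend taken out there (-0.34) was larger than the difference itself on this scale, so the change of sign cannot be read as a rise.

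On the recovered reads of the 16595 genes with a mean of at least 10, tested with voom, KCNQ1OT1 fell by 1.00 on the log2 scale (SE 0.106, adjusted p = 0.000169), and it passed in 6 of 6 fits that left out 1 library. With the trend removed from the same reads it fell by 0.31 (adjusted p = 0.0225). Of the 8 RNAs in that analysis, 6 had an adjusted p under 0.05, all lower in siPSCA, beside 48.6% of its genes. These 6 included NEAT1 (-0.16, adjusted p = 0.0449). With the trend removed 4 passed, MALAT1, UCA1 and KCNQ1OT1 as lower and NEAT1, whose sign changed, as higher (0.20, adjusted p = 0.0276). The share of all genes that passed on reads with the trend removed was not counted. KCNQ1OT1 lies inside the span of KCNQ1 and shares 121 exonic bases with it on the opposite strand, so unspliced KCNQ1 RNA could be counted with it where strand is not known. KCNQ1 read 1.55, 0.994 and 0.705 FPKM in NC and 1.67, 1.70 and 1.49 FPKM in siPSCA. Its groups overlapped, with a log2 fold change of 0.35 (adjusted p = 0.112), and of -0.17 with the trend removed (adjusted p = 0.246). What KCNQ1 RNA added to the reads of KCNQ1OT1 was not tested.

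H19 (ENSG00000130600, chr11:1995176-2001470), the maternally expressed RNA of the same domain and the host of miR-675, was at background. It held 1, 1 and 0 reads in NC and none in siPSCA, below the floor of 3 reads, which corresponds to 0.0568 to 0.0616 FPKM, and no fold change is given. Of the 10 listed genes of this imprinted domain and its insulator factor CTCF, 9 were tested and 4 passed, 3 higher and 1 lower, while 50.7% of all tested genes passed, and the median log2 fold change was 0.35 (0.09 with the trend removed). Without siPSCA 2 only PHLDA2 and TSSC4 passed, beside 4734 of all 13796 tested genes. Without NC 3 the count was 6, beside 7425 of all tested genes. PHLDA2, which restrains placental growth, rose from 78.5 ± 26.7 to 202.2 ± 7.32 FPKM (SD, n = 3; log2 fold change 1.42, adjusted p = 0.00585). TSSC4 rose by 1.09 (adjusted p = 0.00669) and SLC22A18, a membrane transporter, by 0.75 (adjusted p = 0.0345). CDKN1C, the cell cycle inhibitor p57, fell from 11.9 ± 1.17 to 9.26 ± 0.668 FPKM (SD, n = 3; log2 fold change -0.33, adjusted p = 0.0208). These genes are rich in GC, and with the trend removed the values were 0.91 for PHLDA2, 0.40 for TSSC4, 0.09 for SLC22A18 (adjusted p = 0.492) and -0.91 for CDKN1C. In that fit 4 of the 9 tested genes passed, beside 39.9% of all tested genes. PHLDA2 and TSSC4 passed as higher, and CDKN1C and CD81 (-0.47, adjusted p = 0.00356) as lower. MRPL23, the measured gene nearest to H19 at 10.7 kb, differed by 0.58 (adjusted p = 0.0555), and by -0.02 with the trend removed (adjusted p = 0.933). RPL26P30, a pseudogene 333.7 kb away on the other side, rose by 0.56 (adjusted p = 0.0331), and by 0.68 with the trend removed (adjusted p = 0.0247).

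CYTOR (ENSG00000222041, chr2:87454781-87636740), also known as LINC00152, is a mostly cytoplasmic RNA that has been linked to cytoskeletal genes and to proliferation of gastric and colorectal cancer cells. CYTOR read 0.387, 0.428 and 0.492 FPKM in NC and 0.494, 0.426 and 0.378 FPKM in siPSCA. The groups overlapped over their whole range. They held 397 and 404 reads, the siPSCA to NC ratio after scaling to the reads on genes was 1.008 (95% counting interval 0.876 to 1.161), and the voom log2 fold change was -0.02 (95% interval -0.37 to 0.33, adjusted p = 0.919), so a difference smaller than these bounds was not detectable. CYTOR has a near-identical copy on the same chromosome, MIR4435-2HG, and 16.0% of its 50-base words occur in that gene, so its reads could have been split or lost in the counting. The longest match between single transcripts of the 2 genes was 99.2% identical over 2254 aligned bases, with 14 mismatches and 3 gaps. A stretch of 60 bases of this match, read 5′ to 3′ in the sense of each transcript, is shown because it lets a reader see how little separates the copies, with the 2 differing bases in capitals.
CYTOR, transcript CYTOR-216: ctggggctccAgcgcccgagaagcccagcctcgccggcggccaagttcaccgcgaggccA
MIR4435-2HG, transcript MIR4435-2HG-222: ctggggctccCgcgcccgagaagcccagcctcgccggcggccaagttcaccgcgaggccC

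MIR4435-2HG read 0.691, 0.754 and 0.612 FPKM in NC and 0.627, 0.675 and 0.667 FPKM in siPSCA, overlapping groups with a log2 fold change of -0.02 (adjusted p = 0.886). Neither copy thus differed beyond its spread. The measured genes nearest to CYTOR, AC111200.2 and KRCC1, differed by 0.24 (adjusted p = 0.484) and 0.01 (adjusted p = 0.972).

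By level per length, the order in NC was MALAT1, NEAT1, OIP5-AS1, TUG1, UCA1, PVT1, CYTOR, KCNQ1OT1 and H19. The ranges of NEAT1 and OIP5-AS1 overlapped, as did those of TUG1 and UCA1, and all other neighbours were apart in all 3 libraries. In siPSCA, NEAT1 stood above MALAT1, the range of MALAT1 overlapped that of OIP5-AS1, and the order of the rest was the one found in NC. Together the 9 RNAs took 0.117%, 0.106% and 0.109% of the reads on genes in NC and 0.0809%, 0.0842% and 0.0852% in siPSCA. MALAT1 contributed 21.3% to 24.5% of those reads in NC and 13.5% to 16.3% in siPSCA. In bulk RNA, fewer cells that express an RNA and less of it per cell cannot be told apart.

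The proteins that work with NEAT1 and MALAT1 were examined as lists. Of 12 paraspeckle proteins, all 12 were tested, 9 passed (50.7% of all tested genes did), 6 higher and 3 lower, and the median log2 fold change was 0.16. With the trend removed, 7 passed (39.9% of all tested genes did) and the median was 0.18. RBM14, a paraspeckle protein with prion-like sequence, rose from 12.9 ± 2.63 to 27.1 ± 0.887 FPKM (SD, n = 3; log2 fold change 1.03, adjusted p = 0.00241), and SMARCA4, the ATPase of SWI/SNF chromatin remodellers, rose by 0.35 (adjusted p = 0.00231). CPSF6, a 3′ end processing factor, fell by 0.27 (adjusted p = 0.00648), and TARDBP, which binds NEAT1, fell by 0.25 (adjusted p = 0.00756). With the trend removed, RBM14 differed by 0.61 (adjusted p = 0.00132), while SMARCA4 (0.09, adjusted p = 0.389), CPSF6 (0.08, adjusted p = 0.156) and TARDBP (-0.01, adjusted p = 0.915) did not pass. Of 8 genes for MALAT1 processing and nuclear speckles, 7 were tested and 1 passed, beside 50.7% of all tested genes, with a median of 0.09. With the trend removed 4 passed (ELAC2, SON, SRRM2 and SRSF3), beside 39.9% of all tested genes. Without NC 3 and with the trend kept, 3 passed, beside 7425 of all 13796 tested genes. The gene that passed with all libraries and the trend kept was ELAC2, the RNase Z that trims the tRNA-like RNA after RNase P has cut it from MALAT1. ELAC2 rose from 16.7 ± 0.704 to 23.0 ± 0.376 FPKM (SD, n = 3; log2 fold change 0.44, adjusted p = 0.00159, and 0.26 with the trend removed, adjusted p = 0.00261).

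Other lncRNAs known from cancer moved in both directions. Of 48 listed, 47 had a row, 24 were tested and 14 passed, 9 lower and 5 higher, beside 50.7% of all tested genes, and the median log2 fold change was -0.05. With the trend removed 11 passed, beside 39.9% of all tested genes, and the median was 0.07. Without siPSCA 1 or without siPSCA 2, 9 passed, while the count over all 13796 tested genes went from 7001 to 4627 and 4734. HIF1A-AS2, an antisense RNA of HIF1A, read 4.13, 2.80 and 3.49 FPKM in NC and 0.444, 0.211 and 0.721 FPKM in siPSCA. It fell by 1.62 on the log2 scale (adjusted p = 0.00136), and its siPSCA values rest on 4, 2 and 7 reads. As log2(FPKM + 1) understates changes of low values, HIF1A-AS2 fell by 2.90 on recovered reads with voom (adjusted p = 0.000948). MIR210HG, the host RNA of the hypoxia-induced microRNA miR-210, read 5.00, 4.82 and 2.43 FPKM in NC and 1.22, 1.24 and 1.06 FPKM in siPSCA. NC 3 was the lowest of its group and still above every siPSCA library, and MIR210HG fell by 1.18 (adjusted p = 0.00677), or by 1.73 on reads (adjusted p = 0.00311).

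LUCAT1 fell by 0.77 (adjusted p = 0.0015), or by 1.37 on reads (adjusted p = 2.7e-05), and ZFAS1, a host of small nucleolar RNAs, fell by 0.60 (adjusted p = 0.00141). These 4 RNAs were also lower with the trend removed, at -1.48 for HIF1A-AS2, -1.68 for MIR210HG, -0.50 for LUCAT1 and -0.73 for ZFAS1. Among those that rose, SNHG12 rose by 0.46 (adjusted p = 0.0205), SNHG15 by 0.42 (adjusted p = 0.0157), DANCR by 0.40 (adjusted p = 0.00395) and LINC00511 by 0.32 (adjusted p = 0.0251). SNHG12 and SNHG15 host small nucleolar RNAs, and neither passed with the trend removed (adjusted p = 0.0539 and 0.0548). DANCR (0.36) and LINC00511 (0.47) passed in that fit. LINC00511 passed in 2 of 6 fits that left out 1 library (adjusted p up to 0.0884), although its difference on reads was larger (0.55, adjusted p = 0.00117). SNHG12 did not pass without siPSCA 1 or without siPSCA 2, nor SNHG15 without siPSCA 1.

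PVT1 (ENSG00000249859, chr8:127794533-128101253) lies beside the MYC gene, is often amplified with it and has been reported to stabilise the MYC protein. PVT1 read 5.15, 4.69 and 4.60 FPKM in NC and 5.33, 5.80 and 5.61 FPKM in siPSCA. It was the one tested RNA of the 6 whose siPSCA libraries all lay above the NC libraries, by a narrow margin. The means were 4.81 ± 0.293 FPKM (SD, n = 3) and 5.58 ± 0.237 FPKM (SD, n = 3). The log2 fold change of 0.18 (SE 0.063, 95% interval 0.03 to 0.33) had an adjusted p of 0.0543 in limma, which missed the threshold, and it passed without NC 1 (0.22, adjusted p = 0.0410). With the trend removed it was 0.12 (adjusted p = 0.166). MYC, 53.1 kb before PVT1, rose from 42.3 to 57.6 FPKM (log2 fold change 0.44, adjusted p = 0.00327), and by 0.10 with the trend removed (adjusted p = 0.0835), which did not pass. The measured gene on the far side, FAM49B, lay 1738 kb away and differed by -0.20 (adjusted p = 0.0569), and by 0.09 with the trend removed (adjusted p = 0.190).

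CCAT1, colon cancer associated transcript 1, is read from a region upstream of MYC. Its RefSeq position on GRCh38.p14, chr8:127207382-127219268, falls inside the span of CASC19 in the gene models used for the table (chr8:127072694-127227541), so that CASC19 was looked at in its place, after the absence of CCAT1 was seen. CASC19 read 2.50, 2.25 and 2.59 FPKM in NC and 2.04, 2.29 and 2.32 FPKM in siPSCA. The groups overlapped, with a log2 fold change of -0.10 (adjusted p = 0.313), and with the trend removed the sign changed (0.32, adjusted p = 0.0100). These values cover the whole of CASC19 and cannot be assigned to CCAT1.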

How the data were processed

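Gene expression was measured by RNA sequencing in 6 libraries, 3 NC and 3 siPSCA, grouped by the sample labels. The authors deposited 1 table of FPKM values. The submitters' processing notes name GRCh38, gene spans and lengths matched GENCODE release 29 for all 58735 genes, and the aligner, counter, strand and RNA selection are not given in the sources used here. FPKM values were whole multiples of 1 read in 100% of cases (tolerance 0.05), so reads were recovered.

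Values were compared on the scale log2(FPKM + 1) with limma 3.58.1 in R 4.3.3 (lmFit and eBayes, trend on), with group alone in the model, for genes whose mean over the libraries reached 1 FPKM, and p-values were adjusted after Benjamini and Hochberg over all genes tested. Every adjusted p comes from limma. Genes below the minimum were taken from a fit of that model to every gene that had a read, and, as an alternative chosen after seeing the data, from voom on recovered reads. The GC and length trend was removed from each library by natural splines with 5 degrees of freedom each. Scripts were tested on simulated data. Intervals and floors cover counting error only.

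The 10 lncRNAs and the lists were chosen with earlier results of these data known. Named besides them were neighbouring or overlapping genes, list genes past the threshold (where more than 5 passed, the 2 highest and 2 lowest), and the 4 strongest rises and falls of other cancer lncRNAs. One neighbouring gene is not reported here. Same-numbered libraries deviated together by correlations of 0.0955, 0.0132 and 0.134, which did not pair them.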

Additional observations from a re-analysis of the deposited data

How the results depend on the processing

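Across 134 alternative values of 8 lncRNAs, 101 kept their direction and their side of the threshold, 11 gained and 6 lost a call, and 16 changed sign. MALAT1 and UCA1 kept both under all 17 alternatives run for each. With the GC and length trend removed, the sign changed for NEAT1 (0.13, with or without the replicate block, 0.057 without NC 3 and 0.20 on reads), KCNQ1OT1 (0.19, with or without the block, and 0.18 without NC 3), TUG1 (0.020 on reads) and CYTOR (0.13, with or without the block, 0.14 without NC 3 and 0.24 on reads). The KCNQ1OT1 values are on log2(FPKM + 1), and on reads with the trend removed KCNQ1OT1 stayed lower (-0.31). CYTOR also changed sign with quantile normalization (0.056) and ranged from -0.034 to 0.025 when 1 library was left out. The count of lncRNAs past the adjusted p, 4 in all, was 2 (MALAT1 and UCA1) with the replicate block and the trend removed, 2 with the trend removed without NC 3, and 4 to 5 with 1 library left out; the count past p and fold ranged from 1 to 3 and was 1 (MALAT1) without NC 1 or without NC 2. The count of all genes past the adjusted p was 7001, 6725 with the replicate block, 4582 with the block and the trend removed, and 4627 to 7425 with 1 library left out, lowest without siPSCA 1. Other cancer lncRNAs ranged from 9 to 16 (13 with the replicate block, LINC00511 being lost), paraspeckle proteins from 6 to 10, genes of MALAT1 processing from 1 to 3 (4 with the trend removed, 2 with the block as well and 5 without NC 3) and genes of the imprinted domain from 2 to 6 (2 with no FPKM minimum). The cause of these shifts was not tested. Whether poly(A) selection was used is not stated, and H19 and PSCA were limited by depth.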
